A study of Mus musculus with 13 samples.

Results

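The genes described here are 10 components and cleavers of the extracellular matrix around synapses, taken by symbol from a table of 39171 genes in 13 RNA sequencing libraries. They are the chondroitin sulfate proteoglycans Ncan, Bcan, Vcan and Acan, the link protein Hapln1, the tenascins Tnc and Tnr, the receptor Ptprz1, and the proteases Adamts4 and Mmp14. All 10 were found, each under 1 identifier. The libraries come from the spinal cord of C57BL/6 mice in which Il33, the gene of an alarmin cytokine of the interleukin-1 family, was deleted (KO), or from WT littermates. The KO line is credited in the series' design text to Pichery and colleagues. Flow cytometry took astrocytes by a green fluorescent reporter of Aldh1l1, a gene active in astrocytes. It took microglia, the macrophages that live in nervous tissue, by CD11b on their surface. Expression is given in FPKM, fragments scaled by transcript length and library size, a level per length that can be compared between genes.

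The 4 groups hold 4 libraries of KO astrocytes, 3 of WT astrocytes, 3 of KO microglia and 3 of WT microglia, called biological replicates in the design text. All microglia were taken at postnatal day 12. KO astrocytes 2 and WT astrocytes 3 come from day 9, and the remaining 5 astrocyte libraries from day 12. The labels give neither sex nor whether both sorts came from the same animals. The comparisons ask whether these genes differ between astrocytes and microglia, whether loss of Il33 changes them in either cell type, and whether the astrocyte libraries differ by age.

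The perisynaptic matrix is a meshwork in which proteoglycans of the lectican family, Ncan, Bcan, Vcan and Acan among them, hang on chains of hyaluronan. Link proteins such as Hapln1 fasten the lectican to the hyaluronan, and tenascins join lecticans to each other. Astrocytes are a main source of these proteins in the young nervous system. Metalloproteases of the ADAMTS family cut lecticans, and the mix of lecticans shifts as synapses mature.

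Il33 itself followed the labels, at 96.3 to 113 FPKM in WT astrocytes, 0.424 to 2.28 FPKM in KO astrocytes and 0 to 1.26 FPKM in the 6 microglia libraries. The 8 astrocyte markers summed to 5957 to 10538 FPKM in the astrocyte sorts and 62.0 to 100.2 FPKM in the microglia sorts. The 8 microglia markers summed to 7190 to 7836 FPKM in the microglia sorts and 8.80 to 49.2 FPKM in the astrocyte sorts. Both sorts also held oligodendrocyte RNA, the 8 markers of which summed to 4287 to 7853 FPKM in astrocytes, 1033 to 1762 FPKM in WT microglia and 1536 to 2530 FPKM in KO microglia. The absolute depth is unknown, but steps among the lowest values gave a depth relative to KO microglia 2 of 33.8 to 62.5% in 5 astrocyte libraries and of 76.3 to 100% in 5 microglia libraries. In the other 3 libraries that estimate was not stable. WT microglia libraries resembled each other least, with correlations of log2 values across genes of 0.760 to 0.806, against 0.848 to 0.900 within the other groups. A value of exactly 0 is not proof of absence here, since the abundant astrocyte gene Slc1a2 is listed at 0 in KO astrocytes 3 and WT astrocytes 1.

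The promoters of Ncan, Bcan, Ptprz1 and Tnc are shown because these are 4 of the 6 genes that separate the day 9 from the day 12 astrocyte libraries in the values given further on. The others are Vcan and Adamts4. Each run is the 250 bases that end just before the transcription start annotated by RefSeq on GRCm38.p6, written 5′ to 3′ on the gene's strand. Tnc has a pair of annotated starts, and the upstream one is shown. Capitals mark matches on either strand to 4 short motifs. The TATA box was searched as TATAAA. The GC box, where SP factors bind, was searched as GGGCGG. For nuclear factor I, a regulator of glial genes, the letters were TTGGC. For SOX factors, which also act in glia, the letters were ACAAT. In Tnc the TATA box and a SOX motif overlap by their shared base.
Ncan promoter, chr8:70120845-70121094 (minus strand): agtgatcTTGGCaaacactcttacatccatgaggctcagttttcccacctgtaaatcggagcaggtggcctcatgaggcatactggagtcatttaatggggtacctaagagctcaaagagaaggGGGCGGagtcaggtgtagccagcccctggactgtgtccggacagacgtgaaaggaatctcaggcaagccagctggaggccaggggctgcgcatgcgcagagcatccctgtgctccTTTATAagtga
Bcan promoter, chr3:88000357-88000606 (minus strand): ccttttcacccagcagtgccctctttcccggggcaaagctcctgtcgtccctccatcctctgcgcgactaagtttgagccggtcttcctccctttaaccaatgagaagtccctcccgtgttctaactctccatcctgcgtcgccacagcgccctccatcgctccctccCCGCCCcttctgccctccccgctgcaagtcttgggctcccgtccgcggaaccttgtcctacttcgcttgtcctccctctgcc
Ptprz1 promoter, chr6:22875252-22875501 (plus strand): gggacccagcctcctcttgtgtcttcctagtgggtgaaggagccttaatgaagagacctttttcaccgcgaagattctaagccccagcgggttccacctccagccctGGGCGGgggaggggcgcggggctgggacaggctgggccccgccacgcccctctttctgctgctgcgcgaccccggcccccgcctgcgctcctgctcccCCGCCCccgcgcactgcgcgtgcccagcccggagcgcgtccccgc
Tnc promoter, chr4:64047016-64047265 (minus strand): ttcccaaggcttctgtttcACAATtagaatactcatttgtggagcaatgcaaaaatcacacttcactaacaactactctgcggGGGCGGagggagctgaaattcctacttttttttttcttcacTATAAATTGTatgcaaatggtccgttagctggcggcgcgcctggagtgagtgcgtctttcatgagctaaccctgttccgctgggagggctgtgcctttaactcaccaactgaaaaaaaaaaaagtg

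Among 32851 promoter windows of this length, the TATA box was found in 12.4%, the GC box in 32.7%, the nuclear factor I motif in 41.5% and the SOX motif in 27.7%. Ncan and Tnc, both higher at day 9, each held a match to the TATA letters and a GC box. In Ncan the TATA match is on the strand opposite the gene (TTTATA). The search set no distance from the start, so these matches need not be working TATA boxes. Bcan, lower at day 9, and Ptprz1 and Vcan (window not printed), higher at day 9, held GC boxes alone of these motifs. The Ptprz1 window was the richest in G and C of the 4 printed (71.6%), against a median of 52.4% over all windows. These matches describe the letters of the windows and carry no measurement of binding.

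Ncan, which encodes the lectican neurocan of the developing nervous system, was the most abundant of the 10 genes in astrocytes. The gene lies on chromosome 8 from 70093085 to 70120873 on the minus strand (GRCm38). Its level was 1055, 1229 and 1687 FPKM in WT astrocytes 1 to 3, and 1028, 1878, 1043 and 1077 FPKM in KO astrocytes 1 to 4. The highest library of each genotype is its day 9 library. In microglia Ncan was at 9.78, 7.60 and 4.03 FPKM in the WT and 5.38, 4.19 and 4.65 FPKM in the KO libraries. The astrocyte mean was 186 times the microglia mean in WT and 265 times in KO.

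Bcan encodes brevican, a lectican that accumulates as the nervous system matures, and lies on chromosome 3 from 87987531 to 88000230 on the minus strand. Its astrocyte level was 355, 371 and 285 FPKM in the WT libraries and 376, 233, 371 and 381 FPKM in the KO libraries. Here the day 9 libraries are the lowest, the reverse of Ncan. Microglia libraries held 11.6, 6.72 and 4.10 FPKM (WT) and 9.32, 6.14 and 7.22 FPKM (KO), below every astrocyte library.

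Vcan, which encodes versican, a lectican also made by oligodendrocyte precursors and monocytes, ranged widely in both cell types. Its position is chromosome 13 from 89655312 to 89742509, minus strand. WT astrocytes held 21.2, 8.29 and 58.8 FPKM and KO astrocytes 25.8, 58.6, 41.5 and 34.3 FPKM. WT microglia held 25.9, 14.4 and 2.94 FPKM and KO microglia 18.0, 9.26 and 4.81 FPKM, so that the ranges of the cell types overlap in WT and do not in KO. Acan, which encodes aggrecan, a lectican of cartilage and of perineuronal nets, was at or near 0 in every library. It is listed at 0 in 5 of 7 astrocyte libraries, with 0.107 FPKM in KO astrocytes 2 and 0.0627 FPKM in KO astrocytes 3, and ranged from 0.00299 to 0.192 FPKM in microglia. This gene (chromosome 7, 79053483 to 79115099, plus strand) was below the mean of 1 FPKM that limma required here.

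Summed over the 4 lecticans, Ncan made up 71.6 to 86.6% of the lectican FPKM in astrocyte libraries, Bcan 10.7 to 26.3% and Vcan 0.516 to 2.90%. In microglia the small lectican total (11.3 to 47.4 FPKM) was divided otherwise, with Ncan at 16.4 to 35.8%, Bcan at 23.4 to 43.0% and Vcan at 26.1 to 55.0%.

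Hapln1, the link protein gene, was found mainly in the astrocyte sorts, which also held oligodendrocyte RNA. Hapln1 lies on chromosome 13 from 89539796 to 89611652 on the plus strand, separated from Vcan by 43659 bases with no protein-coding gene between them. WT astrocytes held 10.6, 11.2 and 12.2 FPKM, KO astrocytes 14.02, 9.16, 10.9 and 15.9 FPKM, and no microglia library more than 0.116 FPKM. The other lecticans each have a link protein gene as a coding neighbour as well. Hapln2, next to Bcan, reached 1.42 to 7.39 FPKM in astrocytes, Hapln4, next to Ncan, 0 to 3.09 FPKM, and Hapln3, next to Acan, 0 to 0.573 FPKM. Hapln1 was above each of them in every astrocyte library.

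**Figure D1:**
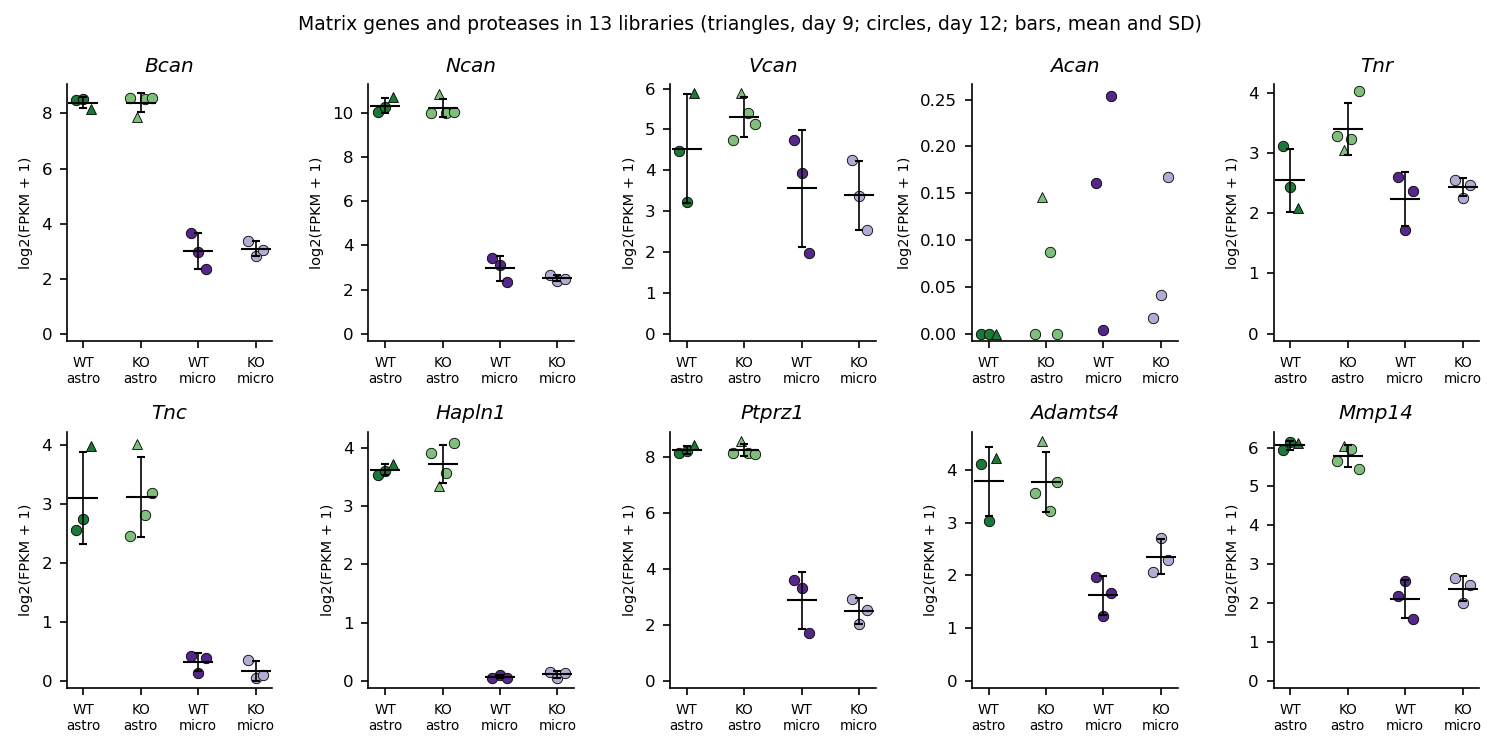
Expression of the 10 genes on the log2(FPKM + 1) scale in each of the 13 libraries, 1 panel per gene, with its own vertical axis; triangles are day 9 and circles day 12 libraries, and bars give the mean and SD of each group (none for Acan, listed at 0 in several libraries). Bcan, Ncan, Tnc, Hapln1, Ptprz1, Adamts4 and Mmp14 sit lower in every microglia library than in any astrocyte library, while Vcan and Tnr of WT cells overlap and Acan stays close to 0.

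The tenascins are hexameric or trimeric glycoproteins, Tnc typical of immature glia and Tnr of the mature matrix and of oligodendrocytes. Tnc (chromosome 4, 63959785 to 64047015, minus strand) was at 4.88, 5.72 and 14.8 FPKM in WT and 4.47, 15.2, 6.01 and 8.10 FPKM in KO astrocytes. In microglia it did not exceed 0.345 FPKM. Tnr (chromosome 1, 159523769 to 159931729, plus strand) was at 7.71, 4.40 and 3.25 FPKM in WT and 8.72, 7.27, 8.41 and 15.3 FPKM in KO astrocytes. Its microglia level was 5.10, 2.31 and 4.18 FPKM in WT and 4.86, 3.79 and 4.56 FPKM in KO, close to the lower astrocyte libraries.

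Ptprz1 encodes a receptor-type tyrosine phosphatase whose ectodomain is a chondroitin sulfate proteoglycan, phosphacan, and which binds tenascins, contactin 1 and pleiotrophin. Ptprz1 lies on chromosome 6 from 22875502 to 23052916 on the plus strand. Its level in WT astrocytes was 283, 295 and 343 FPKM, and in KO astrocytes 281, 377, 279.6 and 277 FPKM. The day 9 library is the highest of each genotype. WT microglia held 11.1, 8.996 and 2.28 FPKM, and KO microglia 6.58, 3.08 and 4.81 FPKM.

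Of the proteases, Mmp14, a membrane-anchored metalloprotease that cuts collagens and activates other metalloproteases, was the more abundant. It lies on chromosome 14 from 54431612 to 54445364 on the plus strand. WT astrocytes held 60.0, 69.5 and 68.4 FPKM and KO astrocytes 49.7, 64.8, 61.6 and 43.0 FPKM, against 2.02 to 4.88 FPKM in WT and 3.01 to 5.22 FPKM in KO microglia. Adamts4, an aggrecanase that cuts lecticans, was at 16.3, 7.19 and 17.7 FPKM in WT and 10.9, 22.6, 8.30 and 12.7 FPKM in KO astrocytes. It lies on chromosome 1 from 171250421 to 171260637 on the plus strand. Vcan, Tnr, Tnc and Hapln1 overlap noncoding or pseudogene models on the other strand. Adamts4 also overlaps 1 annotated gene on the other strand. Whether counting used strand is not given in the sources used here, so the values of all these genes are uncertain.

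Ordered by mean FPKM in the 7 astrocyte libraries, the genes run from Ncan (1285 ± 350.3, SD) through Bcan (339 ± 57.4), Ptprz1 (305 ± 39.1), Mmp14 (59.6 ± 9.84), Vcan (35.5 ± 19.0), Adamts4 (13.7 ± 5.51), Hapln1 (11.99 ± 2.27), Tnc (8.45 ± 4.62) and Tnr (7.87 ± 3.87) to Acan. The ranges of Bcan and Ptprz1 overlap, as do those of every adjacent pair from Mmp14 to Tnr. In the 6 microglia libraries Vcan led with 12.5 ± 8.65 FPKM, followed by Bcan, Ptprz1, Ncan, Tnr, Mmp14 and Adamts4 (3.18 ± 1.46 FPKM), each overlapping the next. Tnc, Acan and Hapln1 were each under 0.35 FPKM in all microglia libraries.

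Between the cell types, 7 of the 9 genes tested were lower in WT microglia than in WT astrocytes, namely Ncan, Bcan, Ptprz1, Mmp14, Hapln1, Tnc and Adamts4. The test was limma on log2(FPKM + 1) over all 13 libraries with age as a covariate, and a call needed a Benjamini-Hochberg adjusted p under 0.05 over all genes tested. By the same rule 24.5% of all 16258 genes tested were lower in microglia and 53.6% differed in either direction. The log2 difference was -7.15 for Ncan (SE 0.26, adjusted p = 1.08e-08), the largest of the 9 on this scale. It was -5.58 for Bcan, -5.27 for Ptprz1, -3.88 for Mmp14, -3.62 for Hapln1 and -2.36 for Tnc. The added 1 FPKM shrinks the differences of genes near 0 in microglia, so the order depends on the scale. As a ratio of mean FPKM, astrocytes over microglia, Hapln1 stood at 231 and Ncan at 186 in WT. In KO those ratios were 151 and 265. Adamts4 had the smallest called difference, -1.88 (SE 0.34, adjusted p = 0.000849). The median over the 9 was -3.62, against 0.21 over all genes tested. Quantile normalization moved the median of all genes to -0.06 and kept the direction and the call of these 7. With 3 libraries against 3, an exact two-sided permutation test of FPKM cannot go below p = 0.1, and each of these 7 genes reached that value.

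Vcan and Tnr were not called in WT. The log2 difference of Vcan was -0.51 (95% interval -2.12 to 1.099, limma adjusted p = 0.576). Without WT microglia 3, the library lowest in Vcan, that difference was 0.28, in the opposite direction. The difference of Tnr was -0.50 (95% interval -1.22 to 0.22, limma adjusted p = 0.221). After quantile normalization of the libraries Tnr was called lower in microglia (-0.93, limma adjusted p = 0.037), the one change of call over its 13 alternatives, in which the adjusted p ran from 0.037 to 0.618. Counting also the near-zero Acan, 8 of 10 genes had WT groups that do not overlap, beside 55.8% of all genes tested.

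In KO cells, a contrast of other libraries within the same fit, 8 of 9 were lower in microglia, against 25.1% of all genes tested in that direction and 56.9% in either. Ncan differed by -7.55 (SE 0.24), Ptprz1 by -5.66, Bcan by -5.44, Hapln1 by -3.66, Mmp14 by -3.36, Tnc by -2.63 and Adamts4 by -1.21 (limma adjusted p = 0.00713). Tnr was the eighth, at -1.11 (SE 0.30, limma adjusted p = 0.0088). Vcan was at -1.57 (SE 0.67, limma adjusted p = 0.0664). It passed the threshold without KO microglia 1 (-2.001, adjusted p = 0.0438) and in a fit of KO libraries alone (-1.72, adjusted p = 0.0193), and over its 14 alternatives the adjusted p ran from 0.0193 to 0.22. In 9 of 10 genes the KO groups do not overlap, beside 62.3% of all genes tested. Tnr passing in KO and not in WT does not show that the genotypes differ, since the interaction term for Tnr was -0.61 (SE 0.42, limma adjusted p = 0.836).

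**Figure D2:**
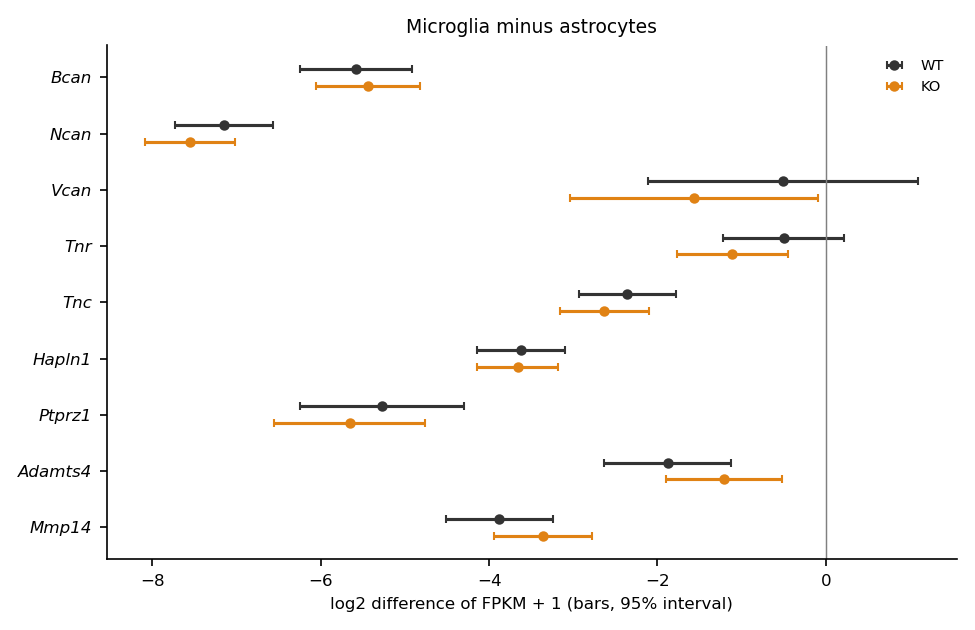
Log2 difference of FPKM + 1, microglia minus astrocytes, for the 9 genes tested in WT and KO cells; points are limma estimates adjusted for age and bars their 95% intervals. The estimates run from -7.55 for Ncan in KO to -0.50 for Tnr in WT, and the intervals of Vcan and Tnr in WT include 0.

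The low microglia levels can be set beside markers of other cells in the same sorts. In WT, microglia held 0.539% of the astrocyte mean for Ncan and 0.433% for Hapln1, within the 0.226 to 1.80% of 7 astrocyte markers, Slc1a3 standing at 6.03%. Bcan (2.22%), Ptprz1 (2.43%) and Tnc (2.95%) were somewhat higher, followed by Mmp14 (5.27%), Adamts4 (15.7%), Vcan (48.9%) and Tnr (75.4%). The 8 oligodendrocyte markers stood at 11.9 to 32.1% of the astrocyte level in WT microglia and at 30.8 to 43.9% in KO microglia. Oligodendrocyte precursor markers spread more widely, from 3.29% for Olig1 to 331% for Pdgfra in WT. The 8 precursor markers summed to 98.4, 57.2 and 30.6 FPKM in WT microglia 1 to 3, the same order as Vcan, Bcan, Ptprz1 and Ncan and not that of Tnr, Adamts4 or Mmp14. In KO microglia 1 to 3 they summed to 49.5, 43.0 and 42.1 FPKM, the order of Vcan and not that of Bcan, Ptprz1, Ncan, Tnr, Adamts4 or Mmp14. In WT microglia 1 to 3 the precursor gene C1ql1 also had that WT order, at 21.8, 14.7 and 1.93 FPKM. Oligodendrocyte markers had it too, with sums of 1762, 1413 and 1033 FPKM, as did border macrophage markers (670, 435 and 227 FPKM). Monocyte and neutrophil markers did not (260, 142 and 206 FPKM). In KO microglia 1 to 3 the oligodendrocyte sums were 2271, 2530 and 1536 FPKM, not the order of Vcan. All 8 precursor and all 8 border macrophage markers were detected in WT microglia. The part of these cells in the microglia values or in the astrocyte values was not tested. In sorted bulk samples fewer cells of a type and less RNA per cell cannot be told apart.

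**Figure D3:**
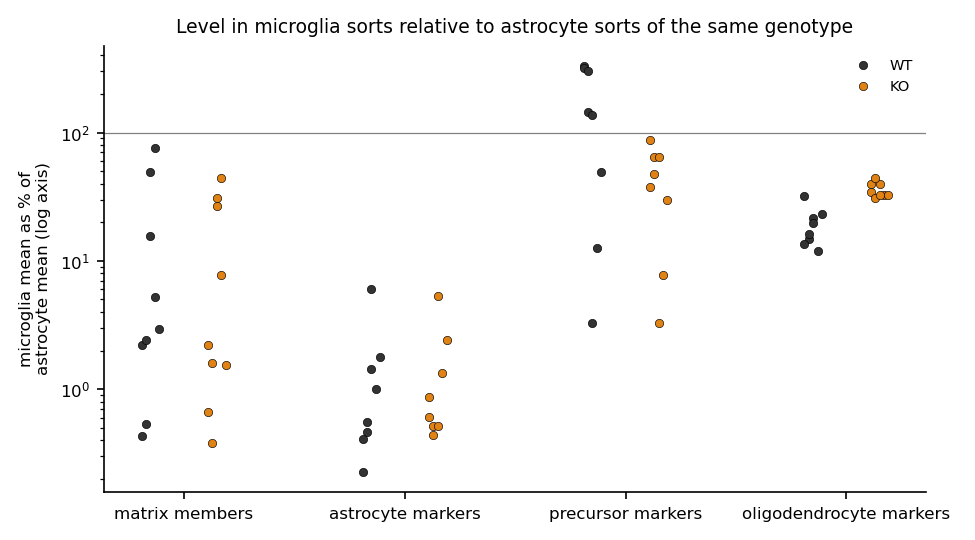
Mean level in microglia as a percentage of the mean level in astrocytes of the same genotype (log axis), for 9 of the 10 genes (Acan left out) and for the 8 markers each of astrocytes, oligodendrocyte precursors and oligodendrocytes. Each point is a gene; the matrix genes spread from 0.377% (Ncan in KO) to 75.4% (Tnr in WT), across the ranges of all 3 marker groups.

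Loss of Il33 gave no called difference in any of the 10 genes. In astrocytes 9 were tested and 0 were called, beside 0.0224% of all 13397 genes tested, and 1 had an unadjusted p under 0.05, beside 4.19% of all genes. That gene was Tnr, 0.80 higher in KO on the log2 scale (SE 0.33, unadjusted p = 0.0452, limma adjusted p = 0.921), and the exact two-sided permutation p was 0.0857 where 0.0286 is the smallest possible. KO was above WT within each age, at 7.27 against 3.25 FPKM at day 9 and at 8.41 to 15.3 against 4.40 to 7.71 FPKM at day 12. The share of all genes that separate in this way within each age was not measured, so that order adds no support. Neuronal markers were higher in KO astrocytes in 6 of 6 tested, with a median of 0.65, 0 called and 0 at an unadjusted p under 0.05. They summed to 215, 40.3, 43.4 and 105 FPKM in KO astrocytes 1 to 4 and to 62.3, 69.7 and 20.4 FPKM in WT astrocytes 1 to 3. Of 7 oligodendrocyte precursor markers tested, 6 were higher in KO astrocytes, with a median of 0.62, 0 called and 1 (Gpr17) at an unadjusted p under 0.05. The precursor gene Pdgfra ranged from 1.27 to 2.54 FPKM in KO and from 0.528 to 1.15 FPKM in WT astrocytes, while the precursor sums overlapped (470 to 590 FPKM in KO and 418 to 562 FPKM in WT). Endothelial and mural markers went the other way, 5 of 6 lower in KO with a median of -0.27. The part of these cells in the Tnr and Vcan values was not tested. Vcan was 0.88 higher in KO (95% interval -0.06 to 1.83, limma adjusted p = 0.921). Its day 9 libraries were nearly equal at 58.6 and 58.8 FPKM, and at day 12 all 3 KO libraries were above both WT libraries. The share of all genes with that order at day 12 was not measured either.

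The most abundant genes left the least room for a difference in astrocytes. The 95% interval of KO minus WT ran from -0.35 to 0.27 for Ncan, from -0.36 to 0.26 for Bcan and from -0.28 to 0.29 for Ptprz1, all on the log2 scale. It was wider for Mmp14 (-0.70 to 0.18), Hapln1 (-0.51 to 0.69), Tnc (-0.53 to 0.78) and Adamts4 (-0.71 to 0.83). The KO and WT ranges of all 9 overlapped in astrocytes, while those of 4.68% of all genes tested did not.

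In microglia 7 genes were tested and 0 were called by limma, beside 0.0818% of all 15889 genes tested. None had an unadjusted p under 0.05, beside 7.96% of all genes. Acan, Tnc and Hapln1 were below the mean of 1 FPKM that the test required. Adamts4 came nearest, with 2.91, 1.36 and 2.17 FPKM in WT and 3.18, 5.56 and 3.91 FPKM in KO microglia, the groups not overlapping, as in 15.9% of all genes tested. Its log2 difference was 0.73 (SE 0.30, limma adjusted p = 0.596), and the exact two-sided permutation p was 0.1, the smallest that 3 against 3 libraries allow. Oligodendrocyte markers stood in the same direction in these libraries, 8 of 8 higher in KO with a median of 0.92 and 0 called (5 with an unadjusted p under 0.05). The myelin gene Mag was at 6.26, 9.10 and 5.22 FPKM in WT and 9.43, 28.7 and 18.9 FPKM in KO microglia. Both Mag and Adamts4 were highest in KO microglia 2. Among the WT libraries they went opposite ways, with Mag highest and Adamts4 lowest in WT microglia 2. The part of the oligodendrocyte markers in the Adamts4 difference was not tested.

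For the other 6 genes in microglia the KO minus WT difference lay between -0.44 (Ncan) and 0.26 (Mmp14), with SEs of 0.29 to 0.80. The interval of Vcan, -2.14 to 1.79, was the widest. Monocyte and neutrophil markers were lower in KO microglia in 6 of 6 tested, with a median of -1.14, and border macrophage markers in 7 of 8, with a median of -0.33. Of these markers 0 were called by limma, 3 and 1 had an unadjusted p under 0.05, and their part in these values was not tested. The interaction of genotype and cell type was called for 0 of 9 genes by limma, beside 0.141% of all genes tested, with 0 at an unadjusted p under 0.05 beside 6.62%. The authors' deposited tables list 483 genes in microglia and 10 in astrocytes at an adjusted p under 0.05, and 0 of the 10 genes described here are among them.

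**Figure D4:**
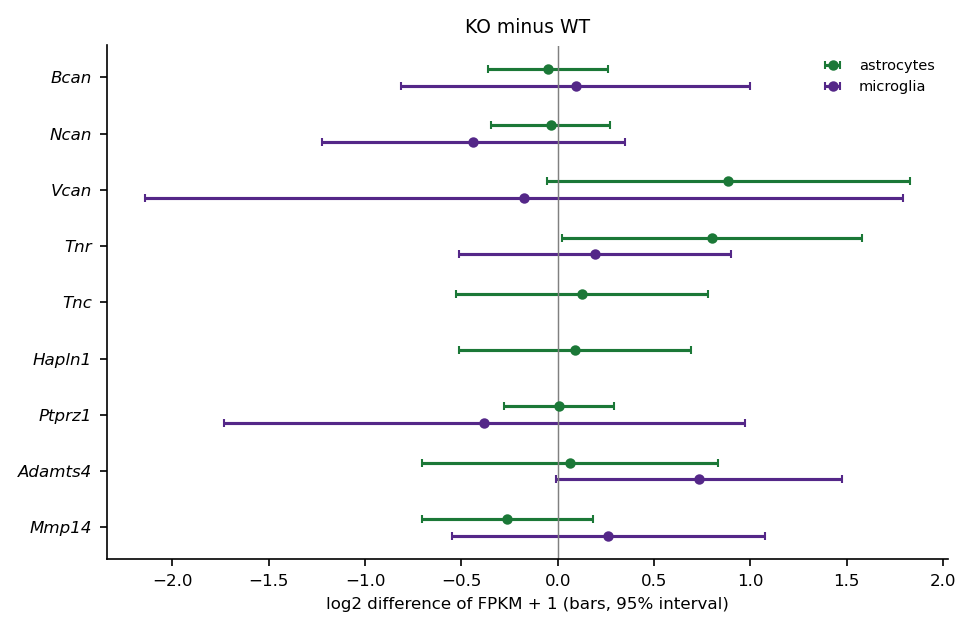
Log2 difference of FPKM + 1, KO minus WT, in astrocytes (9 genes tested) and microglia (7 genes tested); points are limma estimates and bars 95% intervals. The astrocyte intervals of Ncan, Bcan and Ptprz1 are the narrowest, Vcan in microglia is the widest, and only the astrocyte interval of Tnr (0.02 to 1.58) leaves out 0, with an adjusted p of 0.921.

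Between astrocytes of day 9 and day 12, 6 of the 10 genes had levels that do not overlap, although 0 of 9 tested were called by limma. At day 9 Ncan was at 1687 and 1878 FPKM, against 1028 to 1229 FPKM in the 5 libraries of day 12. Tnc was at 14.8 and 15.2 FPKM against 4.47 to 8.10 FPKM, Ptprz1 at 343 and 377 FPKM against 277 to 295 FPKM, Vcan at 58.6 and 58.8 FPKM against 8.29 to 41.5 FPKM, and Adamts4 at 17.7 and 22.6 FPKM against 7.19 to 16.3 FPKM. Bcan went the other way, with 233 and 285 FPKM at day 9 against 355 to 381 FPKM at day 12. The groups of these 6 genes do not overlap, beside 14.7% of all genes tested, and all 6 had an unadjusted p under 0.05, beside 8.61% of all genes.

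The log2 difference, day 9 minus day 12 in a limma fit with genotype, was 0.71 for Ncan (SE 0.14, unadjusted p = 0.00163, adjusted p = 0.215) and -0.53 for Bcan (SE 0.14, adjusted p = 0.353). It was 1.26 for Tnc (adjusted p = 0.29), 1.39 for Vcan (0.412), 0.34 for Ptprz1 (0.547) and 0.86 for Adamts4 (0.568). None of these passed the adjusted threshold, which 0.097% of all genes tested did. Tnr, Hapln1 and Mmp14 overlapped between ages. Leaving out each library in turn kept the sign of the 6, with Ncan between 0.57 and 0.84 and Bcan between -0.69 and -0.35.

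The same split can be written as ratios within a library. These ratios restate the values above and are no further evidence. Ncan stood at 8.07 and 5.91 times Bcan in the day 9 libraries of KO and WT, and at 2.73 to 3.31 times in the 5 libraries of day 12. Tnc stood at 2.09 and 4.56 times Tnr at day 9 and at 0.512 to 1.30 times at day 12. Ratios within a library do not depend on how the libraries were scaled to each other. Each genotype has 1 library of day 9, so age and anything else those libraries share cannot be told apart. Microglia markers were also lower at day 9, in 8 of 8 with a median of -1.08, summing to 8.80 and 20.6 FPKM against 28.2 to 49.2 FPKM, and neuronal markers in 6 of 6 tested. Endothelial and mural markers were lower in 5 of 6, summing to 25.8 and 36.1 FPKM against 47.1 to 82.0 FPKM. Among them Rgs5, a pericyte gene, was the 1 marker gene called between ages (-2.06, SE 0.20, limma adjusted p = 0.0245). Astrocyte markers were lower in 5 of 8, with a median of -0.40. Oligodendrocyte precursor markers were higher in 6 of 7, summing to 562 and 590 FPKM against 418 to 536 FPKM. Most of the day 9 sums was Olig1, at 443 FPKM in WT and 407 FPKM in KO. The precursor gene Pdgfra overlapped between ages, at 0.528 and 1.84 FPKM against 0.692 to 2.54 FPKM. So did Neu4, at 0.0285 and 0.658 FPKM against 0.368 to 2.10 FPKM. Oligodendrocyte markers were higher in 7 of 8, with a median of 0.33, although their sum was 4287 and 5366 FPKM against 5106 to 7853 FPKM. The part of these cells in the age values was not tested.

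**Figure D5:**
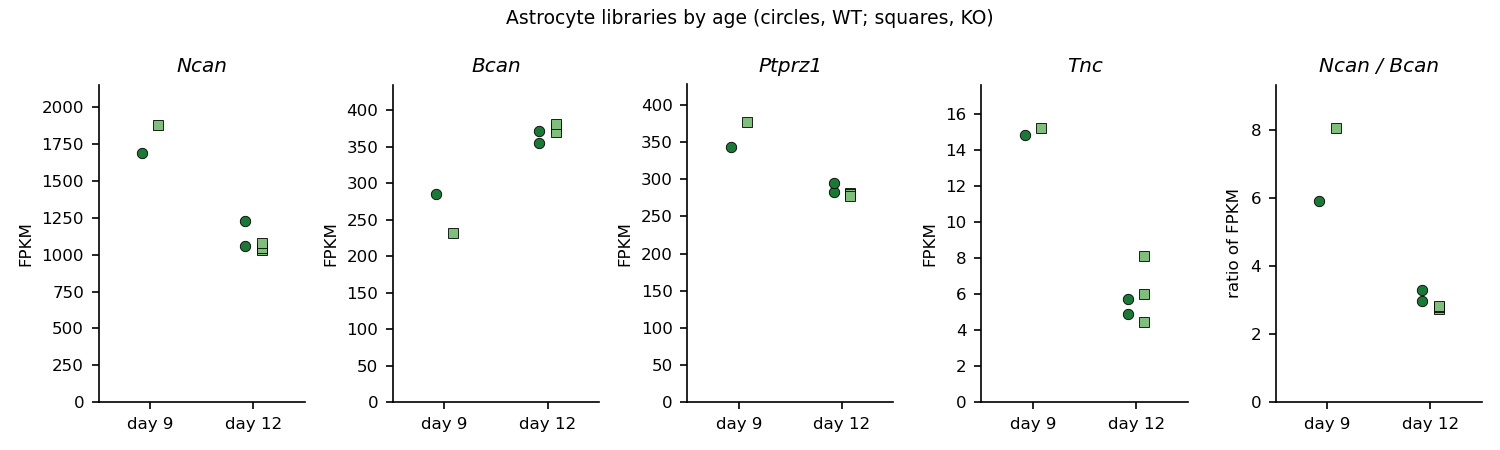
FPKM of Ncan, Bcan, Ptprz1 and Tnc, and the ratio of Ncan to Bcan, in the 7 astrocyte libraries by age; circles are WT and squares KO, and each axis starts at 0. Both day 9 libraries lie above the 5 day 12 libraries for Ncan, Ptprz1, Tnc and the ratio, and below them for Bcan.

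Over the 7 astrocyte libraries, Ncan and Ptprz1 ran together (Pearson's r of log2 values 0.987) and Bcan ran against both (-0.947 with Ncan and -0.982 with Ptprz1). Among 8853 genes with a mean of at least 5 FPKM, the gene most like Ncan was Ptprz1, and the gene most like Ptprz1 was AI413582 (0.990). Bcan was most like Csrp1 (0.986), Tnc most like Sept11 (0.981), Hapln1 most like Spcs1 (0.984), Tnr most like Glis2 (0.972) and Mmp14 most like Ice2 (0.978). Vcan was most like a gene without a symbol, followed by Rtca (0.981). Adamts4 was most like Mag, a myelin gene of oligodendrocytes (0.977), which was at 66.0, 20.6 and 87.0 FPKM in WT and 51.3, 103, 26.0 and 51.7 FPKM in KO astrocytes. These correlations describe 7 libraries that share the age difference, and each is the highest of many.

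Other genes of the pathway were read against the shares of all genes tested, of which 24.5% were called lower and 29.1% higher in WT microglia, and 25.1% lower and 31.9% higher in KO microglia. Of 12 receptors and ligands of the matrix tested, 10 were lower and 1 higher in WT microglia. Ptn, the gene of the Ptprz1 ligand pleiotrophin, was at 1449 ± 499.5 FPKM (SD, n = 3) in WT astrocytes and 18.2 ± 8.02 FPKM in WT microglia. Cntn1, the gene of the Ptprz1 ligand contactin 1, and Nrcam, a neural adhesion molecule, were lower in microglia by log2 differences of -4.38 and -5.33. Cntn1 was also the 1 pathway gene called between ages, at 41.3 and 39.9 FPKM in the day 9 astrocytes of KO and WT against 141 to 193 FPKM at day 12 (-2.03, SE 0.18, limma adjusted p = 0.0158).

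Other matrix proteases were the list with more genes higher in microglia, 8 higher and 4 lower of 14 tested in WT, beside 29.1% and 24.5% of all genes. Ctss, the gene of the lysosomal protease cathepsin S, was at 1159 ± 92.9 FPKM in WT microglia and 4.46 ± 5.19 FPKM in WT astrocytes. Adamts1, of the same family as Adamts4, was at 76.8 ± 23.3 FPKM in WT microglia and 4.43 ± 0.488 FPKM in WT astrocytes, the reverse of Adamts4. Plau, the gene of urokinase, was at 14.04 ± 4.19 and 0.313 ± 0.0298 FPKM. Of 8 protease inhibitors, 5 were lower and 2 higher in WT microglia. The metalloprotease inhibitor genes Timp4 (223 ± 30.3 FPKM in WT astrocytes) and Timp3 (137 ± 17.8 FPKM) were at 0.772 ± 0.743 and 2.11 ± 0.899 FPKM in WT microglia.

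Of 6 genes tested from a list of lectican partners, other proteoglycans and Omg, 5 were lower and 0 higher in WT microglia. Omg, Fbln1 and Cspg5 had the smallest p. Of 18 genes of chondroitin sulfate synthesis, 5 were lower, among them Csgalnact1 (-3.72) and Chpf (-2.82), and 2 higher, among them the sulfotransferase gene Chst7 (3.00), a share of lower genes near that of all genes. Of 7 hyaluronan genes, 2 were lower (Cemip2 and Hyal1, both of hyaluronan breakdown) and 1 higher (Hmmr, a hyaluronan receptor also tied to cell division), also near the share of all genes. In the KO cells the same lists gave 9 lower and 2 higher of 12 receptors and ligands and 5 lower and 8 higher of 14 proteases. They gave 5 lower and 2 higher of 8 inhibitors and 5 lower and 0 higher of 6 genes of the partner list. Of 18 synthesis genes 5 were lower and 2 higher, and of 7 hyaluronan genes 1 was lower and 1 higher. The KO shares of lower genes among synthesis and hyaluronan genes were near or below the 25.1% of all genes. Between genotypes 0 genes of these 6 lists were called by limma in either cell type, with 4 of 61 astrocyte and 3 of 57 microglia genes at an unadjusted p under 0.05, near the 4.19% and 7.96% of all genes. The authors' deposited microglia table, made from counts, does list Adamts5 and Chst3, a protease and a sulfotransferase gene, with higher WT means.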

How the data were processed

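RNA of flow-sorted cells was extracted with TRIZOL, and NuGEN RNA-Seq V2 served for cDNA and libraries, per the labels' protocols. Per the submitters' processing notes, the build was GRCm38 and the tools were Cufflinks and Cuffnorm, DESeq2 and HTSeq 0.6.1p1, TopHat2 2.0.11 with Bowtie2 2.2.3, and FastQC. The sources used here state neither settings nor annotation. As a first table, the authors deposited FPKM for 39171 genes, scaled between libraries by an unstated method. The authors' tables of called genes, per the file headers, hold mean normalised counts as a signal, log2 fold changes, the Wald statistic (a score) and the p-value, and were used only to see which genes they list.

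Differences were tested with two-sided moderated statistics with a trend from limma 3.58.1 (R 4.3.3) on log2(FPKM + 1), which understates the change of low genes. For single genes, exact two-sided permutation tests of group means were added. Genes needed a mean of at least 1 FPKM over the fitted libraries, and a call an adjusted p (Benjamini-Hochberg, all genes tested) under 0.05. Microglia and astrocytes were fitted alone for genotype, astrocytes with age as a covariate. Cell types and the interaction were fitted over all 13 libraries with age. The scripts were tested on simulated data. Symbols and positions come from GENCODE mouse release 21, which held 37605 (96.0%) of the identifiers, and promoters from RefSeq, which matched 9 of the 10 genes.

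The members and lists were chosen with earlier results of these data known. All 10 genes are named in every comparison. From each pathway list the text draws on up to 3 called genes of smallest p, and likeness takes the 2 most correlated genes. Marker lists cover astrocytes, microglia, oligodendrocytes and their precursors, neurons, border macrophages, and monocytes with neutrophils. Lists of endothelial and mural, fibroblast and meningeal, and ependymal cells were also measured. Replicate numbers only name libraries, since same-numbered libraries of different groups deviated together by correlations of -0.08 to 0.03. Alternatives were another pseudocount, no filter, quantile normalization, no trend, a replicate block, no age term, day 12 alone, other fits, and leaving out each library.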

Additional observations from a re-analysis of the deposited data

Results flagged for a closer look

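In the KO astrocytes, the group of 4 libraries searched for a library far from the others, 1 library stood apart in 3 of the 10 genes. KO astrocytes 2, the day 9 library, had the lowest Bcan, 233 FPKM against 371 to 381 FPKM in the other 3. It also had the highest Ncan, 1878 FPKM against 1028 to 1077 FPKM, and the highest Ptprz1, 377 FPKM against 277 to 281 FPKM. In each case the gap to the nearest other library, divided by the range of the group, exceeded Dixon's critical value of 0.829. Chance passes about 1 in 20 such groups, and the 3 genes come from the same library. WT astrocytes 3, the other day 9 library, is likewise the lowest of its group in Bcan and the highest in Ncan and Ptprz1.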

How the results depend on the processing

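The counts of members called stayed at 0 for genotype in both cell types, for the interaction and for age, and at 7 in WT cell types except for Tnr after quantile normalization, under the alternatives run. In KO cell types they were 8, and 9 where Vcan passed. Counts over all genes moved more. For KO against WT in microglia, 13 genes became 25 with a pseudocount of 0.1, 7 with no filter and 37 in the fit of all 13 libraries, and 18 to 48 without 1 library. For KO against WT in astrocytes, 3 genes became 5 with a pseudocount of 0.1, 0 with no filter, 0 in day 12 libraries alone and 7 in the fit of all 13 libraries, and 0 to 8 without 1 library. The interaction count of 23 became 37 with no filter and 15 to 75 without 1 library. The age count of 13 became 7 with a pseudocount of 0.1, 35 with no filter and 6 to 82 without 1 library. The cell type counts were 7965 to 8401 (WT) and 7973 to 9043 (KO) without 1 library. Quantile normalization moved the share of called genes that are higher in microglia from 54.3% to 43.3% in WT and from 56.0% to 44.2% in KO, where the median of all genes moved from 0.24 to -0.08.

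With the replicate block, called genes fell to 3 in microglia, 0 in astrocytes and 14 for the interaction, and no member changed its call. In astrocytes the block turned the KO minus WT sign of Tnc (-0.0028), Hapln1 (-0.012) and Adamts4 (-0.0062), and in the interaction that of Hapln1 (0.057). Leaving out KO astrocytes 4, the library that shares its number with no other and so adds nothing to a blocked difference, gave the same 4 values. The numbers do not pair the libraries, so these are not weaker effects. No block was fitted for age.

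Other uncalled differences near 0 also changed sign. In astrocytes, KO minus WT was 0.0049 for Ncan after quantile normalization, -0.023 for Ptprz1 and -0.0080 for Adamts4 without the age term, and 0.052 for Bcan, -0.049 for Ptprz1 and -0.051 for Adamts4 in day 12 libraries alone. The interaction of Hapln1 was 0.18 with a pseudocount of 0.1. Without 1 library, KO minus WT in microglia ran from -0.22 to 0.43 for Bcan, -0.96 to 0.42 for Vcan and -0.061 to 0.38 for Tnr. In astrocytes it ran from -0.11 to 0.052 for Bcan, -0.12 to 0.057 for Ncan, -0.0028 to 0.24 for Tnc, -0.012 to 0.28 for Hapln1, -0.049 to 0.042 for Ptprz1 and -0.22 to 0.43 for Adamts4. Vcan between WT cell types ran from -1.11 to 0.28, the interaction from -0.17 to 0.48 for Bcan and -0.24 to 0.057 for Hapln1, and the age difference of Hapln1 from -0.51 to 0.15. The cause of these changes was not tested. In KO cell types the exact permutation p of Vcan, Tnr, Tnc and Adamts4 was 0.0571 on FPKM and 0.0286 on log2(FPKM + 1). Absolute depth is unknown, so no counting error can be given for values under 1 FPKM, and 3 or 4 libraries a group leave wide intervals for Vcan, Tnr and Adamts4.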
